A study of Homo sapiens with 6 samples.

Results

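NF-κB is a family of dimeric transcription factors built from 5 subunits, and the IκB proteins bind and regulate those dimers. The genes described here are the 5 subunit genes NFKB1, NFKB2, REL, RELA and RELB and 5 genes of the IκB family, NFKBIA, NFKBIB, NFKBIE, NFKBIZ and BCL3. They were chosen by name and matched to Ensembl identifiers through their symbols. These 10 genes are among the 64253 identifiers of the deposited count table, and all 10 were among the 16091 genes with enough counts to be tested. RNA came from NCI-H1299, a human lung cancer cell line. In all, 3 libraries of wild type cells were compared with 3 libraries of cells that overexpressed MTSS1 from an mCherry-tagged plasmid. MTSS1 is a membrane-binding scaffold of the actin cytoskeleton. Per the labels' protocols, the overexpressing cells went through hygromycin selection and flow sorting, HEK293T cells are mentioned for the transfection, and all cells grew in the same serum-containing medium. None of the libraries analysed is labelled as a control plasmid, so effects of MTSS1, the tag, the selection and the sorting cannot be told apart. The labels do not say that replicates are separate cultures, so p-values measure the spread between these libraries, which may be technical.

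As background, RelA, RelB and c-Rel carry a transactivation domain. NFKB1 and NFKB2 encode the precursors p105 and p100, which are processed to the DNA-binding subunits p50 and p52 and, unprocessed, hold other subunits in the cytoplasm through their ankyrin repeats. In the canonical pathway the IκB kinase complex marks IκBα, IκBβ and IκBε (NFKBIA, NFKBIB, NFKBIE) for degradation and frees dimers such as p50 with RelA. In the non-canonical pathway the kinase NIK drives processing of p100 and the release of p52 with RelB. NFKBIZ and BCL3 encode nuclear IκB proteins that act as cofactors of p50 and p52 dimers. Several of these genes are themselves NF-κB targets, NFKBIA being the standard example of negative feedback. The title of the study concerns RelA phosphorylation, which RNA counts do not measure.

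The κB site, the DNA element that NF-κB dimers bind, was searched for in the promoters of these genes, because feedback through such sites links the members to each other. RefSeq (GRCh38.p14) windows of 300 bases, of which 250 lie before an annotated start, were available for 8 of the 10 members in 14 windows; RELB and NFKBIE had none. On both strands, the 10-base κB consensus was found in 9 of the 14 windows, against 11.3% of 35116 windows over all genes. The windows with a match belonged to 7 of the 8 genes, and no share per gene was computed over all genes. The matching word shared by the most members was GGGAATTTCC, found in 5 windows of 5 members and in 0.145% of all windows; it was picked from these same windows, so its count is a description. A match is a description of letters, not a site in use. Overlapping matches were joined into 1 stretch. The lines that follow give 30 bases around each of 10 chosen stretches, 5′ to 3′ on the gene's strand, with the matching stretch in capitals: all 4 of NFKB2, the gene that rose, and 1 from each other member with a match.
NFKB2, chr10:102394462-102394491: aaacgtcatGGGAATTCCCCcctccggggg
NFKB2, chr10:102394490-102394519: gggccgagaaGGGGCTTTCCcggccctgag
NFKB2, chr10:102395519-102395548: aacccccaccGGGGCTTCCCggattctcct
NFKB2, chr10:102395674-102395703: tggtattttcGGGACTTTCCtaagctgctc
NFKB1, chr4:102501300-102501329: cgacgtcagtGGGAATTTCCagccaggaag
REL, chr2:60881518-60881547: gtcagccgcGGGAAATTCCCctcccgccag
NFKBIA, chr14:35404811-35404840, minus strand: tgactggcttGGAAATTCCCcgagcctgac
NFKBIB, chr19:38899932-38899961: ggcgtggtgGGGAATTTCCCgcagggcgga
NFKBIZ, chr3:101827757-101827786: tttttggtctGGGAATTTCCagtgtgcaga
BCL3, chr19:44748700-44748729: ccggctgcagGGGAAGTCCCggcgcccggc
NFKB1, REL, NFKBIA, NFKBIB and NFKBIZ share the word or its reverse complement. NFKB2 holds its 4 stretches in the windows of its 2 more downstream starts, and none in the window of the most upstream one. All 250 bases before its middle start, which hold 2 of the stretches, are also annotated as untranslated parts of transcripts. Windows of some other members hold such bases too. NFKB2 had 3 windows, more than any other member, so its number of stretches is not comparable with theirs. Gene counts do not show which start was used.

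Of the 8 members with windows, RELA was the only one without a match in any of them. The 250 bases before the more upstream of its RefSeq starts (chr11:65663858-65664107, minus strand) and those before the start of NFKBIA (chr14:35404750-35404999, minus strand, match in capitals) are given as a contrast between a subunit gene without a match and the feedback inhibitor.
RELA: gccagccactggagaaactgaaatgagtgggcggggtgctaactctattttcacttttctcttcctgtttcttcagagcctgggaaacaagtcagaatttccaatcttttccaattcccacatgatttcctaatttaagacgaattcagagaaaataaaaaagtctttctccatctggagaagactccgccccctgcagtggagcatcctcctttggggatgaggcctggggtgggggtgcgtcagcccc
NFKBIA: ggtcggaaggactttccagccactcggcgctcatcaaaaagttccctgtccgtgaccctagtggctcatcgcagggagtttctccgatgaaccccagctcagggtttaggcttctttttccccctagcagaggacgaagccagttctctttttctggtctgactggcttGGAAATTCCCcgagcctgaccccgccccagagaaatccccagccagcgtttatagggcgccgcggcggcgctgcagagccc
That no match was found says only that these letters are absent from those windows.

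Libraries held 13883380 to 29479453 counts. MTSS1 itself, read as a check of the labels, stood between 18.0 and 24.3 CPM in wild type and between 544 and 568 CPM in overexpressing libraries (25.1-fold, edgeR adjusted p = 3.6e-07); the plasmid's transcripts cannot be separated from the endogenous ones. CPM, the count scaled to library size, is here adjusted with TMM. Replicate 1 of each group stood apart from the other 4 libraries on the first principal component (34.8% of the variance). Of 12 markers of lung adenocarcinoma and its epithelium, whose summed level was 571 to 853 CPM in wild type and 259 to 470 CPM in overexpressing libraries, only the keratin genes KRT8 and KRT18 were above 1 CPM in every library. The lower sum came from KRT8 and KRT18, with log2 fold changes of -1.74 and -0.80 (edgeR adjusted p = 0.011 and 0.061). The other tested markers of this list, NKX2-1, KRT7 and EPCAM, were higher in overexpressing libraries, but did not pass. Their log2 fold changes were 1.15, 1.05 and 0.66 (edgeR adjusted p = 0.12, 0.16 and 0.44). The surfactant genes SFTPA1, SFTPB and SFTPD had 0 counts, and the lung lineage factor gene NKX2-1 stood between 0.63 and 2.92 CPM. Blood cells are rich in REL, RELB and NFKB2, so 10 blood cell markers were read as well. Their summed level was 4.56 to 6.38 CPM in wild type and 9.55 to 12.1 CPM in overexpressing libraries. ITGAM made up most of this, with means of 3.57 and 8.16 CPM (edgeR adjusted p = 0.021), and the highest value of any other marker in any library was 1.42 CPM (LYZ). The T cell receptor genes CD3E and CD3D reached at most 0.080 CPM. Fewer cells with a transcript and less transcript per cell cannot be told apart in bulk RNA.

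Among the 10 members, NFKB2 rose in MTSS1-overexpressing cells, and the other 9 did not pass the test. A gene was called when its adjusted p in edgeR's quasi-likelihood test, Benjamini-Hochberg adjusted over all 16091 genes, was under 0.05. That is 1 of 10 members, beside 4.28% of all tested genes (688), so the count itself is not set apart from the background. It was called higher, as were 1.82% of all tested genes. In edgeR's test 0 members were called lower, beside 2.45% of all tested genes (0 also at an unadjusted p under 0.05 and with DESeq2, beside 10.7% and 4.59%). DESeq2 called 1 member, NFKB2, beside 8.49% of the genes to which it gave an adjusted p. At an unadjusted p under 0.05 the count was 2 members, NFKB2 and REL, beside 19.8% of all tested genes. Both NFKB2 and REL had CPM that did not overlap between the groups, 2 of 10, beside 25.5% of all tested genes. The median log2 fold change was 0.11 over the members and 0.0046 over all tested genes.

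**Figure D1:**
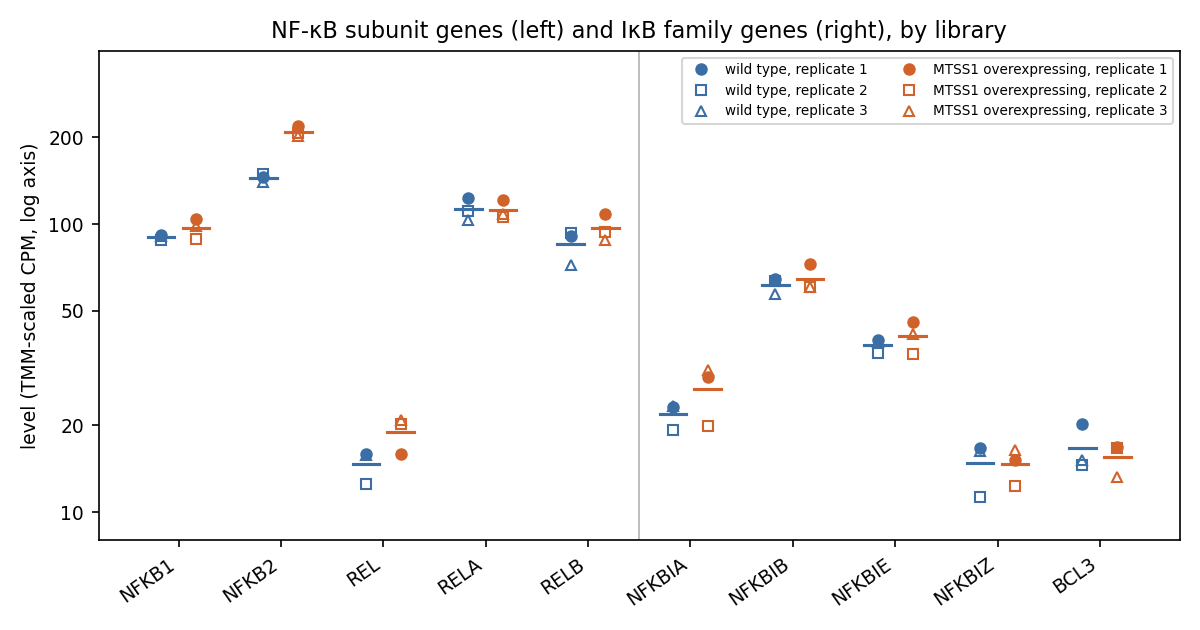
Level of each member in every library, in TMM-scaled CPM on a log axis; blue symbols are the 3 wild type and orange symbols the 3 MTSS1-overexpressing libraries, the symbol shape gives the replicate and bars are group means. NFKB2 lies between 140 and 150 CPM in wild type and between 203 and 219 CPM in overexpressing libraries; only NFKB2 and, narrowly, REL do not overlap between the groups.

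NFKB2 (ENSG00000077150, chr10:102394110-102402529, GRCh38, plus strand), the precursor gene of the non-canonical pathway, stood at 146, 150 and 140 CPM in wild type replicates 1 to 3 and at 219, 207 and 203 CPM in overexpressing replicates 1 to 3. Every overexpressing library was above every wild type library. This is a log2 fold change of 0.53 (SE 0.07, 95% interval 0.36 to 0.70, 1.44-fold, edgeR adjusted p = 0.0075, n = 3 per group). Its spread was small, with coefficients of variation of 3.43% and 3.83% between replicates, where counting error alone gives 1.68% and 1.53%. Leaving out wild type replicate 3 ended the call at nearly the same size (log2 fold change 0.50, edgeR adjusted p = 0.0501), as did leaving out both libraries that stood apart (0.50, edgeR adjusted p = 0.078). The 50 tested genes nearest to NFKB2 on the long arm of chromosome 10 had a median log2 fold change of -0.04, with none of the 50 called in edgeR's test, and only 1 of them had a larger fold change than NFKB2. The genes next to it, GBF1 and FBXL15, had log2 fold changes of -0.06 and -0.17 (edgeR adjusted p = 0.74 and 0.80). The blood cell marker sum was also higher in the overexpressing libraries, and its part in the NFKB2 result was not tested.

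NFKB1 (ENSG00000109320, chr4:102501329-102617302), which encodes p105 and p50, stood at 91.4, 88.0 and 90.7 CPM in wild type and at 104, 88.5 and 98.8 CPM in overexpressing libraries. The groups overlapped, with overexpressing replicate 2 among the wild type values. The log2 fold change of 0.11 (SE 0.08, 95% interval -0.08 to 0.30) did not pass the test (edgeR adjusted p = 0.55). It was 0.065 without overexpressing replicate 1 and 0.18 without overexpressing replicate 2. The 2 precursor genes thus differed in their result, but edgeR's test did not compare them with each other. Their ratio within each library is given with the shares below.

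RELA (ENSG00000173039, chr11:65653596-65663094, minus strand), the gene of the p65 subunit named in the study's title, stood at 123, 111 and 104 CPM in wild type and at 121, 106 and 108 CPM in overexpressing libraries. The ranges lay almost on top of each other. Its log2 fold change was -0.01, with a 95% interval of -0.22 to 0.20 (edgeR adjusted p = 0.97), so a change of RELA transcript beyond 0.86-fold or 1.15-fold lay outside the interval. Its sign changed between alternative settings.

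RELB (ENSG00000104856, chr19:45001430-45038198), the usual partner of p52, stood at 91.1, 93.4 and 72.1 CPM in wild type and at 108, 94.1 and 87.8 CPM in overexpressing libraries. Overexpressing replicate 3 lay below 2 of the wild type libraries, so the groups overlapped. The log2 fold change of 0.18 (95% interval -0.09 to 0.44) did not pass (edgeR adjusted p = 0.48). It was 0.065 without wild type replicate 3 and 0.096 without overexpressing replicate 1. The partner gene NFKB2 was called and RELB was not, and the interval of RELB reaches that of NFKB2.

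REL (ENSG00000162924, chr2:60881521-60931610), which encodes c-Rel, had the fewest counts per exonic base of all members, with 216 to 526 counts per library. It stood at 15.9, 12.5 and 15.7 CPM in wild type and at 15.9, 20.2 and 20.9 CPM in overexpressing libraries. The groups were barely separated, because overexpressing replicate 1 lay level with wild type replicate 1. At a log2 fold change of 0.38 (95% interval 0.03 to 0.72), it did not pass (edgeR adjusted p = 0.21). GENCODE places another gene, ENSG00000267520, over 5702 of the 13170 exonic bases of REL (43.3%) on the same strand, and that gene was listed at 0 counts in every library. How the authors' counting treated reads in both genes is not given in the sources used here, and the level of REL may leave them out.

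The 3 cytoplasmic inhibitors showed no called difference. NFKBIA (ENSG00000100906, chr14:35401511-35404749, minus strand), encoding IκBα, stood at 23.1, 19.3 and 23.3 CPM in wild type and at 29.5, 19.99 and 31.1 CPM in overexpressing libraries. Overexpressing replicates 1 and 3 were above all wild type libraries, while replicate 2 lay among them. The log2 fold change was 0.29 (95% interval -0.09 to 0.68, edgeR adjusted p = 0.40) and did not pass. It was 0.48 without overexpressing replicate 2 and 0.17 without overexpressing replicate 3 (edgeR adjusted p = 0.12 and 0.72). The 50 genes around NFKBIA on chromosome 14 had a median of 0.17, and measured against them its log2 fold change was 0.13 (edgeR adjusted p = 0.79).

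NFKBIB (ENSG00000104825, chr19:38899700-38908893), encoding IκBβ, stood at 64.3, 63.7 and 57.0 CPM in wild type and at 72.8, 60.3 and 60.5 CPM in overexpressing libraries. Overexpressing replicate 1 was the highest of the 6 and the rest were interleaved. Its log2 fold change was 0.06 (95% interval -0.16 to 0.29, edgeR adjusted p = 0.80), and it turned to -0.02 without overexpressing replicate 1. The gene shares 40 exonic bases with the deacetylase gene SIRT2 on the opposite strand, 1.72% of its exons.

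NFKBIE (ENSG00000146232, chr6:44258166-44265788, minus strand), encoding IκBε, stood at 39.5, 35.8 and 38.9 CPM in wild type and at 45.8, 35.4 and 41.7 CPM in overexpressing libraries. Replicate 2 was the lowest of each group. Its log2 fold change was 0.10 (95% interval -0.15 to 0.36, edgeR adjusted p = 0.70). It was 0.027 without overexpressing replicate 1, 0.061 without wild type replicate 2 and 0.21 without overexpressing replicate 2.

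The 2 nuclear IκB genes were low, and neither passed the test. NFKBIZ (ENSG00000144802, chr3:101827991-101861022) stood at 16.8, 11.2 and 16.4 CPM in wild type and at 15.2, 12.3 and 16.5 CPM in overexpressing libraries. Replicate 2 was again the lowest of each group, and the log2 fold change was -0.01 (95% interval -0.42 to 0.40, edgeR adjusted p = 0.98). BCL3 (ENSG00000069399, chr19:44747705-44760044) stood at 20.3, 14.5 and 15.2 CPM in wild type and at 16.9, 16.6 and 13.2 CPM in overexpressing libraries. The highest value belonged to wild type and the lowest to an overexpressing library, with a log2 fold change of -0.10 (95% interval -0.47 to 0.28, edgeR adjusted p = 0.82). The sign of both genes changed between alternative settings. Their replicates varied by 13.1% to 20.8% of the mean, where counting error gives 4.95% to 5.82%, so spread between libraries and not depth set the precision.

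**Figure D2:**
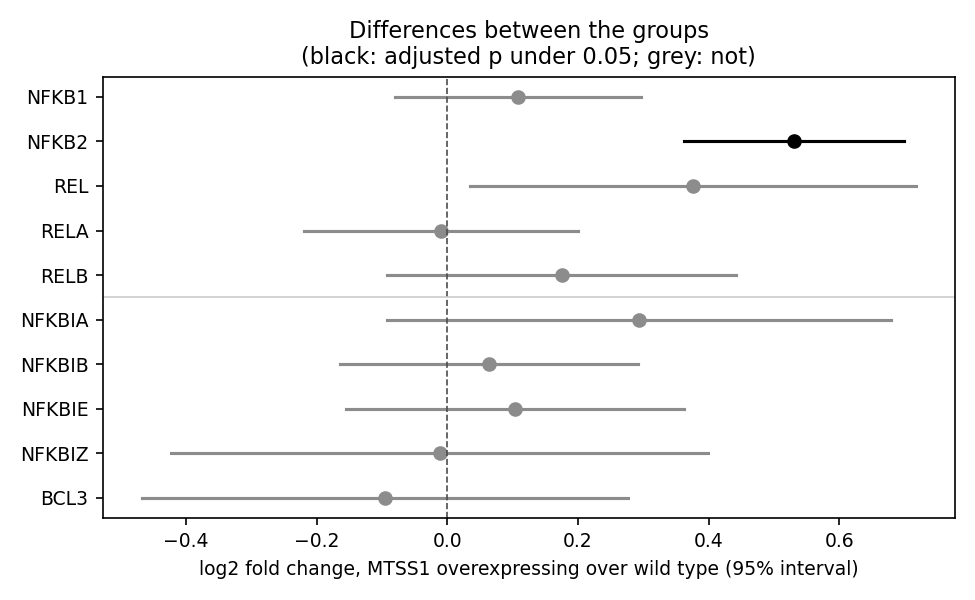
Log2 fold change of each member, MTSS1 overexpressing over wild type, with its 95% interval from edgeR's quasi-likelihood fit (not adjusted for the number of genes); black marks an adjusted p under 0.05. The interval of NFKB2 runs from 0.36 to 0.70, that of REL starts at 0.03, and the other 8 include 0.

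Levels of different genes were compared only per length, as CPM per kilobase of annotated exons. In wild type cells NFKB2 was highest with 32.4 ± 1.11 CPM per kilobase (SD, n = 3). RELB followed with 28.2 ± 3.85 and NFKBIB with 26.5 ± 1.74. RELA stood at 20.6 ± 1.80, NFKBIE at 14.7 ± 0.762 and NFKB1 at 14.4 ± 0.289. NFKBIA stood at 9.23 ± 0.945, BCL3 at 5.14 ± 0.976, NFKBIZ at 2.51 ± 0.521 and REL at 1.12 ± 0.143 CPM per kilobase. The order of the 10 genes was the same in overexpressing cells, where NFKB2 stood at 46.8 ± 1.79 and RELB at 31.8 ± 3.42. In both groups the libraries of RELB and NFKBIB overlapped, as did those of NFKBIE and NFKB1, and other neighbours in the order did not overlap. The length used matters for this order. With the longest protein-coding transcript as length, RELA stood above NFKBIB in wild type (35.4 ± 3.09 and 32.0 ± 2.102) and NFKB1 above NFKBIE (22.0 ± 0.442 and 14.7 ± 0.762). Without the bases it shares with the other gene, REL stood at 1.97 ± 0.252 and 2.54 ± 0.366 CPM per kilobase in wild type and overexpressing cells, with libraries that overlapped those of NFKBIZ.

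Shares of the subunit transcripts do not depend on library size. NFKB2 made up 32.2%, 33.6% and 34.8% of the 5 subunits' length-scaled counts in wild type and 39.2%, 41.2% and 40.7% in overexpressing libraries. The groups did not overlap, and the mean difference was 6.80 percentage points (exact permutation test, two-sided, p = 0.1, the smallest that 3 against 3 allows; 0.214 adjusted over 15 shares and ratios). RELA made up 22.3%, 20.4% and 21.2% in wild type and 17.9%, 17.3% and 17.8% in overexpressing libraries. The groups did not overlap, with a mean difference of -3.67 percentage points (exact permutation test, two-sided, p = 0.1, also the smallest possible, 0.214 adjusted). The level of RELA in CPM was level between the groups. Its share falls when the NFKB2 part of the same total grows, so this is not a separate result. RELB took 29.1% ± 2.29 and 27.4% ± 1.34 (SD, n = 3), NFKB1 14.9% ± 1.09 and 13.4% ± 0.790, and REL 1.16% ± 0.191 and 1.25% ± 0.248 in wild type and overexpressing cells, all with overlapping libraries. With coding transcript lengths the NFKB2 share was 30.7% ± 1.23 and 37.4% ± 1.01.

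The ratio of NFKB2 to the other subunit genes rests on the same counts and was added after the values of NFKB2 were seen. NFKB2 had 1.44, 1.64 and 1.65 times the length-scaled counts of RELA in wild type and 2.19, 2.38 and 2.29 times in overexpressing libraries. Relative to RELB the ratios were 1.08, 1.09 and 1.31 in wild type and 1.37, 1.49 and 1.57 in overexpressing libraries. Relative to the other precursor gene, NFKB1, the ratios were 2.22, 2.38 and 2.15 against 2.93, 3.27 and 2.87. None of the 3 ratios overlapped between the groups. Each had an exact permutation p of 0.1 (two-sided), the smallest possible, and 0.214 after adjustment over 15 shares and ratios. The precursor genes NFKB1 and NFKB2 together had 0.943 ± 0.0869 times the length-scaled counts of RELA, RELB and REL in wild type and 1.16 ± 0.0534 times in overexpressing cells. For this ratio the exact permutation test gave the same values (two-sided, p = 0.1, 0.214 adjusted).

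**Figure D3:**
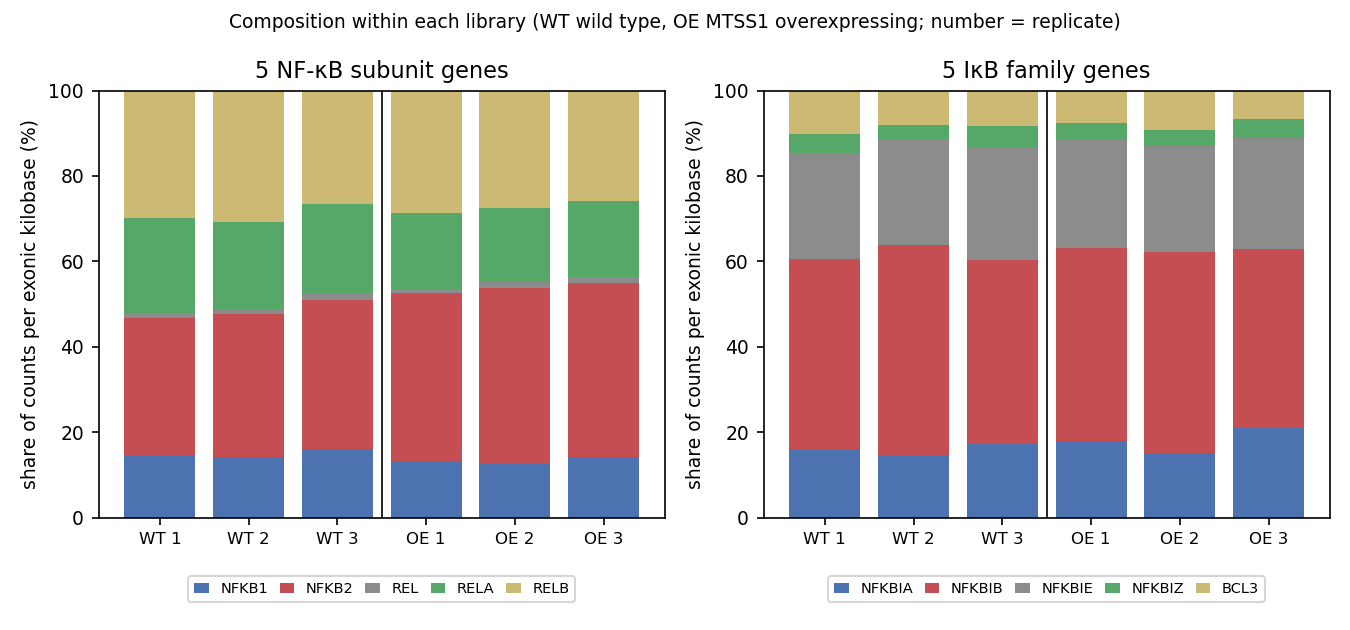
Share of each gene in the summed counts per exonic kilobase of the 5 subunit genes (left) and of the 5 IκB family genes (right), in percent, with 1 bar per library (WT wild type, OE MTSS1 overexpressing). The NFKB2 segment grows from 32.2% to 34.8% in wild type to 39.2% to 41.2% in overexpressing libraries, and the NFKBIB segment is the largest of the IκB family in all 6.

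Within the IκB family the composition overlapped between the groups for every gene. NFKBIB made up 45.7% ± 3.10 in wild type and 44.7% ± 2.58 in overexpressing cells (SD, n = 3), and NFKBIE 25.4% ± 0.976 and 25.5% ± 0.623. NFKBIA made up 15.9% ± 1.34 and 18.1% ± 2.93, with its highest share of 21.1% in overexpressing replicate 3. BCL3 and NFKBIZ took 8.80% ± 1.16 and 4.30% ± 0.776 in wild type, and 7.79% ± 1.37 and 3.99% ± 0.428 in overexpressing cells. The summed length-scaled counts of NFKBIA, NFKBIB and NFKBIE were 0.523, 0.496 and 0.551 times those of the 5 subunits in wild type and 0.494, 0.428 and 0.496 times in overexpressing libraries. The groups lay side by side with almost no gap (exact permutation test, two-sided, p = 0.1, the smallest possible, 0.214 adjusted over 15 shares and ratios). NFKB2 is part of the divisor, and the 3 inhibitor genes themselves had log2 fold changes of 0.29, 0.06 and 0.10. The lower ratio is therefore not a separate result. With coding transcript lengths the ratio was 0.440 ± 0.0231 and 0.405 ± 0.0348 (exact permutation test, two-sided, p = 0.3).

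Of 10814 tested genes with a symbol and a mean of at least 5 CPM, those whose log2 CPM followed NFKB2 most closely over the 6 libraries were UBQLN2, H3C10, THEM6, EMD and EMP2 (Pearson coefficients 0.995, 0.994, 0.992, 0.9907 and 0.9905). All 5 were themselves called higher, with log2 fold changes of 0.65, 1.01, 0.97, 0.82 and 0.78. Genes among those most like RELA were PFN1, COX5B, SORBS3 and RPL12 (0.990 to 0.981), with log2 fold changes between -0.04 and 0.02. The coefficients describe 6 libraries of 2 groups that share their scaling, and are given without a test. Genes picked for following a member largely share its difference between the groups. Their calls and log2 fold changes are therefore not separate results.

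Genes that act on these members were read from lists. Of 38 tested genes of the activation machinery, from receptors and adaptors to the IκB kinases and the ubiquitin ligases, 1 was higher and 1 lower, beside 1.82% and 2.45% of all tested genes, a share near the background. When neighbouring title numbers were a block the counts were 5 and 6, where 10.7% and 12% of all tested genes passed (22.7% together). Their log2 fold changes had a median of 0.0015. IRAK1, a kinase downstream of interleukin-1 and Toll-like receptors, had 549 ± 46.6 CPM in wild type and 881 ± 85.7 in overexpressing cells (0.68 on the log2 scale, edgeR adjusted p = 0.0090). TAB2, an adaptor of the kinase TAK1, had 181 ± 18.2 and 128 ± 15.7 CPM (-0.50 on the log2 scale, edgeR adjusted p = 0.038). Against their chromosomal neighbours neither passed (log2 fold changes -0.03 and -0.24, edgeR adjusted p = 0.89 and 0.21). IRAK1 was called in 5 of 6 fits without 1 library and TAB2 in 2 of 6. The genes of the catalytic IκB kinase subunits did not pass: CHUK had a log2 fold change of -0.09 and IKBKB of 0.05 (edgeR adjusted p = 0.73 and 0.85). IKBKG, another gene of this kinase complex, stood at 4.30, 2.12 and 3.64 CPM in wild type and at 7.56, 5.04 and 4.84 CPM in overexpressing libraries. Its log2 fold change was 0.79, with an edgeR adjusted p of 0.18 without the block and 0.015 with it. IKBKG lies on chromosome X, as does IRAK1, and its value against chromosomal neighbours is not given here. The part of such neighbours in its difference was not tested. MAP3K14, which encodes NIK, the kinase upstream of p100 processing, stood at 114 ± 8.21 and 139 ± 40.6 CPM (log2 fold change 0.28, edgeR adjusted p = 0.45). CHUK, IKBKB, IKBKG and MAP3K14 were picked for their role after their values were seen.

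Of 29 tested genes for enzymes and cofactors that modify RelA, such as kinases, phosphatases, acetylases and deacetylases, 1 was higher and 0 lower in edgeR's test (3 and 4 at an unadjusted p under 0.05, 3 and 0 with DESeq2, 3 and 4 with the block). Over all tested genes the shares higher and lower were 1.82% and 2.45% in edgeR's test, 9.15% and 10.7% at the unadjusted p, 3.90% and 4.59% with DESeq2, and 10.7% and 12% with the block. Its median log2 fold change was 0.0045. RPS6KA1, encoding the kinase RSK1, which can phosphorylate RelA, stood at 22.7, 18.4 and 22.4 CPM in wild type and at 32.8, 37.0 and 31.0 CPM in overexpressing libraries. The groups were well apart, by 0.67 on the log2 scale with an SE of 0.13 (edgeR adjusted p = 0.022). This call was kept in only 1 of the 6 fits that left out 1 library, without wild type replicate 1, with a highest edgeR adjusted p of 0.072 (without overexpressing replicate 2).

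Of 26 tested target genes other than the members, 0 were higher and 5 lower in edgeR's test (1 and 7 at an unadjusted p under 0.05, 0 and 4 with DESeq2, 3 and 10 in the block fit), and their median was -0.11 on the log2 scale, beside 0.0046 over all tested genes. The shares of all tested genes lower by these 4 rules were 2.45%, 10.7%, 4.59% and 12%, in the same order. Those higher were 1.82%, 9.15%, 3.90% and 10.7%. The list was chosen with earlier results of these data known, so its counts are a description. The adhesion receptor gene ICAM1 stood at 38.8 ± 4.72 CPM in wild type and 8.29 ± 1.93 in overexpressing cells (-2.24 on the log2 scale, edgeR adjusted p = 9.3e-04). The chemokine gene CCL2 had 81 pooled counts in wild type and was listed at 0 in the overexpressing libraries (edgeR adjusted p = 0.0099). The caspase inhibitor gene XIAP, the syndecan gene SDC4 and the urokinase gene PLAU changed by -0.47, -0.44 and -0.55 (edgeR adjusted p = 0.012, 0.027 and 0.047). Against their chromosomal neighbours these 3 did not pass (log2 fold changes -0.31, -0.40 and -0.60, edgeR adjusted p = 0.068, 0.088 and 0.058), while ICAM1 and CCL2 did (edgeR adjusted p = 7.6e-04 and 0.012). ICAM1 and CCL2 passed in all 6 fits without 1 library, XIAP in 3, PLAU in 1 and SDC4 in 0 (edgeR adjusted p of SDC4 0.054 to 0.11 in those fits). Without both libraries with title numbers 09 and 10, CCL2 did not pass (edgeR adjusted p = 0.086). In that fit ICAM1 and PLAU did (edgeR adjusted p = 0.021 and 0.027). NFKB2, itself counted among the targets of NF-κB, was called in the other direction. Of the 40 listed targets 14 were not tested and 8 of these had 0 counts in all libraries; 4 of them, TNF, LTB, IER3 and TAP1, lie on chromosome 6 near CSNK2B, a broadly expressed gene that had 1 count in each group, so a listed 0 there cannot be read as absence.

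**Figure D4:**
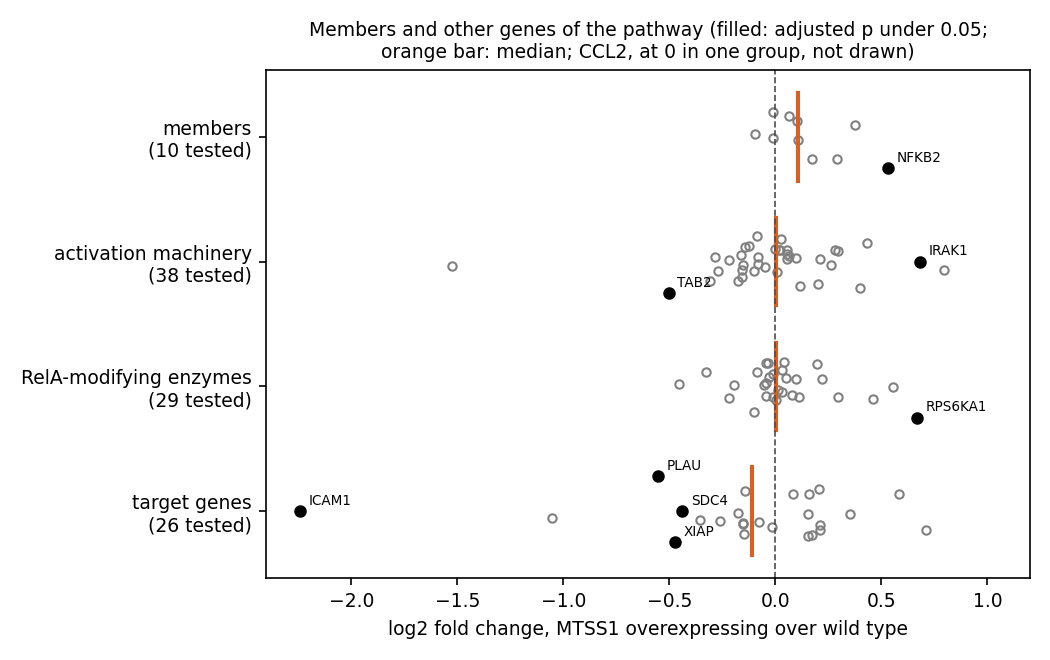
Log2 fold change of each tested gene among the members and in 3 lists of other pathway genes; filled points have an adjusted p under 0.05, the orange bar is the median of the set, vertical scatter carries no value, and CCL2, at 0 in one group, is not drawn. The medians lie at 0.11, 0.0015, 0.0045 and -0.11, and ICAM1 at -2.24 lies farthest from 0 of the points drawn.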

How the data were processed

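The authors deposited unnormalized counts, whole numbers for each Ensembl identifier. Per the submitters' processing notes, bcl2fastq, HISAT2 2.1.0, HTSeq and GRCh38 were used; for the annotation release, strand setting and overlap mode, the entry is: not given in the sources used here. Symbols came from a name table or GENCODE 29, which also gave coordinates and exon lengths on GRCh38.

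Counts were tested with edgeR 4.0.16 (R 4.3.3): TMM, filterByExpr and the two-sided quasi-likelihood test, threshold 0.05. Intervals use the fit's SE. The fit was also run on simulated counts. These had the same spread setting for every gene and no link between neighbouring titles, so the run does not vouch for the fit on these data. Alternatives were DESeq2 1.42.0, RLE scaling, no filter, leaving out libraries, an offset for 50 chromosomal neighbours, a block of neighbouring title numbers and other gene lengths. Deviations from group means correlated at 0.66, 0.34 and 0.38 within the 3 neighbouring-title pairs, and between -0.40 and 0.10 otherwise, but the labels do not say that such numbers share a batch. Every replicate pair differed beyond counting noise (chi-square over its degrees of freedom 14.7 to 28.0). Counting intervals cover counting error only. Depth was 13883380 to 29479453 counts per library.

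The members and lists were chosen with earlier results of these data known. Genes named are MTSS1, all members, called list genes (at most 8 a list) and the 5 genes most like each called member and RELA, of which 1 is not reported here.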

Additional observations from a re-analysis of the deposited data

How the results depend on the processing

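NFKB2 kept its direction in every setting run (log2 fold change 0.50 to 0.58). Its call, the only one among the members, was lost in edgeR's test without wild type replicate 3 and in the fits added after seeing the data, without both replicates 1 (0.50, edgeR adjusted p = 0.078; members called 0, all genes 132, machinery 1, RelA modifiers 0, targets 2) and without both libraries with title numbers 09 and 10 (0.56, edgeR adjusted p = 0.067; members 0, all genes 73, machinery 0, modifiers 0, targets 2). Both leave 2 libraries per group. Counts of called genes over all genes, machinery and modifiers were 1260, 4 and 3 with DESeq2 and 1489, 4 and 4 without the filter. With the replicate block they were 3651, 11 and 7, with 13 targets, and the members' count stayed at 1. With the neighbour offset 375 genes were called in all, 0 of the machinery and 2 targets. Without 1 library the count over all genes was 145 to 346, members 0 to 1, machinery 0 to 2, modifiers 0 to 1 and targets 2 to 4, and log2 fold changes were 0.50 to 0.56 for NFKB2, -0.067 to 0.058 for RELA, -0.18 to 0.11 for NFKBIZ, -0.19 to 0.066 for BCL3 and -0.022 to 0.11 for NFKBIB. Signs also turned for RELA (0.10) and NFKBIZ (0.042) with the neighbour offset, for NFKBIZ with the block (0.0022), for NFKBIZ (0.059) and BCL3 (0.0078) without both replicates 1, and for RELA (0.015) without title numbers 09 and 10; IRAK1 turned to -0.032 with the neighbour offset. Differences in share without 1 library were -0.0107 to 0.234 percentage points for REL, -2.27 to 0.727 for NFKBIB and -0.213 to 0.659 for NFKBIE. The cause of these changes was not tested. Shares and ratios kept their sign under each length used. REL fell to 0.22 without title numbers 09 and 10 (edgeR adjusted p = 0.55). REL, NFKBIZ and BCL3 had the fewest counts, 207 to 526 per library, and the spread between their libraries was larger than counting error.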

Other observations

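A pattern noticed after the values were seen is shared by both groups. Libraries with title numbers 09 and 10, replicate 2 of each group, were the lowest of their group in 4 of 10 members (40%): NFKB1, NFKBIA, NFKBIE and NFKBIZ. Of all tested genes 18.9% had this pattern, as had 10 of 26 target genes (38.5%) and 9 of 38 genes of the activation machinery (23.7%). In NFKBIA these libraries stood at 19.3 and 19.99 CPM, where the other 4 lay between 23.1 and 31.1 CPM. In NFKBIZ they stood at 11.2 and 12.3 CPM, where the other 4 lay between 15.2 and 16.8 CPM. Among the targets, BIRC3, encoding the ubiquitin ligase cIAP2, stood at 116 and 152 CPM against 179 to 302 CPM. Within each pair of neighbouring title numbers BIRC3 was also higher in the overexpressing library (179 and 285, 116 and 152, 198 and 302 CPM), with an edgeR adjusted p of 0.25 without the block and 9.9e-05 with it. The pentraxin gene PTX3 stood at 9.33 and 12.8 against 14.6 to 21.5 CPM, and its edgeR adjusted p was 0.50 without the block and 0.026 with it. CD83, a surface receptor gene, stood at 9.63 and 11.9 against 13.5 to 15.1 CPM. BIRC3, PTX3 and CD83 were picked from the targets with this pattern, and other targets went the opposite way. VEGFA was highest in the libraries with title numbers 09 and 10, at 46.5 and 38.2 CPM against 19.97 to 27.9 CPM. So was CXCL2, at 129 and 112 CPM against 88.9 to 104 CPM. Targets with this opposite pattern were not counted. No label describes what sets these libraries apart.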
